A study of Mus musculus with 4 samples.

Results

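Insulin cells with a second hormone are islet cells whose messenger RNA (mRNA) was led by insulin but that also held a substantial amount of glucagon, somatostatin or pancreatic polypeptide mRNA. They were chosen by their hormone counts: Ins1 and Ins2 together had to take at least 5% of a cell's unique molecular identifiers (UMIs, each a count of 1 captured mRNA molecule) and more than any other hormone, and at least 1 of Gcg, Sst and Ppy had to take at least 2%. Of 8369 insulin-led cells among the 12752 cells that passed the quality filter, 252 met this rule, 92 with Gcg, 63 with Sst, 80 with Ppy and 17 with several of these. The hormone shares of these cells, and the insulin dominance, are therefore the choice itself and are given as a description. They are called Ins+Gcg, Ins+Sst, Ins+Ppy and Ins+several cells here, against insulin-only cells, which met the insulin criterion and had every other hormone under 2%.

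The study used single-cell RNA sequencing to ask how a coding variant of Pax4, a transcription factor of the β-cell lineage, changes islet cells. Islets came from male C57BL6/N mice that were either wildtype (WT) or homozygous (HH) for a knock-in, in the endogenous mouse Pax4 gene (chr6:28442334-28449353, GRCm38), of the counterpart of the human R192H variant, so the change was present in every cell of the body and from development onwards. Mice were 12 weeks old on a standard chow diet (SCD), or 16 weeks old after 4 weeks on a high-fat diet (HFD), so age and diet cannot be told apart. Islets of several mice were pooled into 1 library for each of the 4 groups, WT SCD, HH SCD, WT HFD and HH HFD, so each group is 1 sample. A difference between groups cannot be told apart from one between libraries, and no test between groups was possible. Intervals below are 95% intervals that cover counting error only.

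Mouse islets hold β cells, which release insulin, α cells, which release glucagon, δ cells, which release somatostatin, and PP cells, which release pancreatic polypeptide. Mature cells of each type mostly make 1 of these hormones, and each type expresses its own transcription factors, such as Pdx1, Nkx6-1 and Mafa in β cells, Irx1 and Irx2 in α cells, and Hhex in δ cells. During development Pax4 favours the β and δ fates. Cells with insulin and a second hormone are described in fetal islets and in models of β-cell identity loss. In droplet sequencing, a pair of cells caught in the same droplet also gives such a profile.

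The deposited matrices held 22218 barcodes, of which 3173 (WT SCD), 3162 (HH SCD), 2032 (WT HFD) and 4385 (HH HFD) passed the filter of under 10% mitochondrial UMIs, 3000 to 50000 UMIs and 2000 to 5000 genes. The libraries totalled 87472976, 79712168, 68011082 and 104810105 UMIs. WT HFD stood apart, with 38.3% of its barcodes kept against 61.6% to 67.8% in the other libraries. Pax4, the altered gene, had 0 UMIs in every library, so its level could not be used to check the genotype labels. Pairs of libraries shared 6 to 11 barcode sequences, and 1 of those shared between WT SCD and WT HFD belonged to a cell with a second hormone. The insulin label was borne out by genes that the rule did not use. Insulin-only cells held Mafa, Nkx6-1 or Pdx1 in 86.1% to 93.8% of cells after each cell was thinned to 5000 UMIs, against 11.5% to 15.9% of Gcg-only, 35.2% to 41.1% of Sst-only and 32.0% to 43.1% of Ppy-only cells.

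Cells with a second hormone made up 47 of 2111 insulin-led cells on SCD and 8 of 1161 on HFD in WT islets, and 71 of 2072 and 126 of 3025 in HH islets. Given in the order WT SCD, HH SCD, WT HFD and HH HFD, as are all lists of 4 values from here on, the shares were 2.23% (exact binomial interval 1.64 to 2.95), 3.43% (2.69 to 4.30), 0.689% (0.298 to 1.35) and 4.17% (3.48 to 4.94). Both HH libraries thus had higher shares than the WT library of the same diet, by 1.20 percentage points on SCD (interval 0.165 to 2.25) and by 3.48 points on HFD (2.52 to 4.34). The intervals do not hold the spread between mice or between libraries. Without the upper limits on UMIs and genes the shares were 2.95%, 4.02%, 1.48% and 4.62%, so that of WT HFD moved the most. Predicted doublets, cells whose profile a doublet caller scored most like a sum of cells, numbered 81, 80, 33 and 154. Their number was set by that of the kept cells, so it was lowest in WT HFD and highest in HH HFD. Of the cells with a second hormone, 32 of 47, 45 of 71, 4 of 8 and 81 of 126 were among them. Without predicted doublets the shares were 0.735%, 1.30%, 0.350% and 1.55%. The HH minus WT difference was then 0.567 points on SCD (−0.0866 to 1.25) and 1.20 points on HFD (0.516 to 1.78), so the SCD difference was within counting error. Of the 45 cells then left in HH HFD, 16 were like-profiled cells described further on, and without them too the HH HFD share was 1.01% and the HFD difference 0.656 points (0.0189 to 1.16). With the second hormone set at 5% in place of 2%, the shares were 1.56%, 1.93%, 0.517% and 2.25% and the differences were 0.367 points on SCD (−0.464 to 1.21) and 1.73 points on HFD (0.948 to 2.41).

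**Figure D1:**
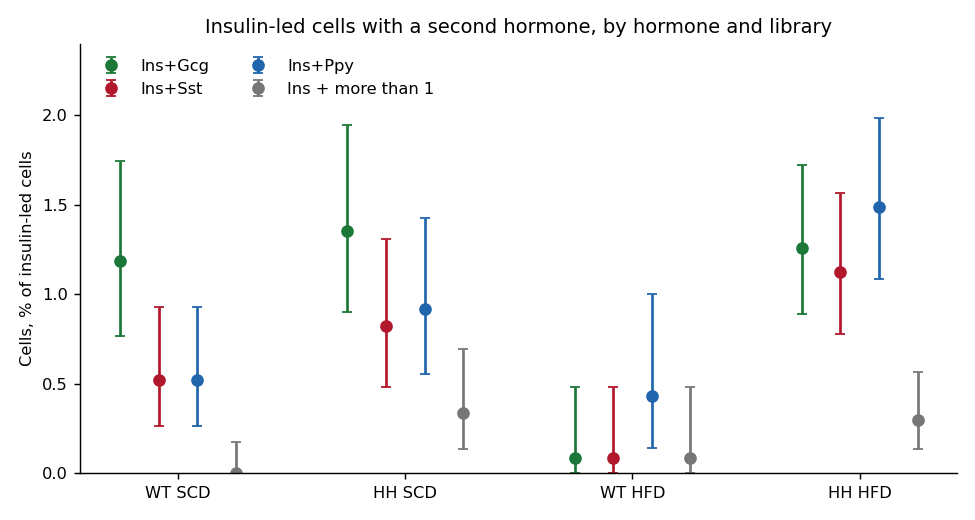
Percent of insulin-led cells that also held Gcg, Sst, Ppy or several of these at 2% of UMIs or more, by library, with 95% exact binomial intervals as bars. HH HFD has the highest Ins+Ppy share at 1.49%, which is 0.964% without 16 like-profiled cells and then near the 0.917% of HH SCD, and WT HFD has 1 Ins+Gcg and 1 Ins+Sst cell.

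Ins+Gcg cells numbered 25, 28, 1 and 38, which is 1.18%, 1.35%, 0.0861% and 1.26% of insulin-led cells. Ins+Sst cells numbered 11, 17, 1 and 34 (0.521%, 0.820%, 0.0861% and 1.12%), and Ins+Ppy cells 11, 19, 5 and 45 (0.521%, 0.917%, 0.431% and 1.49%). WT HFD thus held 1 Ins+Gcg and 1 Ins+Sst cell, while 5 of its 8 cells were Ins+Ppy. The HFD differences between HH and WT were 1.17 points for Ins+Gcg (interval 0.633 to 1.64), 1.04 points for Ins+Sst (0.515 to 1.49) and 1.06 points for Ins+Ppy (0.359 to 1.63). In HH HFD 34 of the 38 Ins+Gcg cells and 31 of the 34 Ins+Sst cells were predicted doublets, as was the 1 cell of each kind in WT HFD. The first 2 differences thus rest mostly on predicted doublets. Without 16 like-profiled HH HFD cells described further on, the Ins+Ppy share was 0.964% in HH HFD and the difference 0.533 points (−0.121 to 1.04), within counting error. On SCD they were 0.167, 0.299 and 0.396 points, each with an interval that included 0. Cells with several hormones numbered 0, 7, 1 and 9.

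Set against the single-hormone cells of the same library, Ins+Gcg cells numbered 6.91, 6.91, 0.408 and 9.41 per 100 Gcg-only cells, of which there were 362, 405, 245 and 404. For Sst these figures were 6.25, 9.39, 0.935 and 20.2 per 100 Sst-only cells, and for Ppy they were 11.2, 14.8, 7.69 and 26.9 per 100 Ppy-only cells. The pairing with Ppy was the most frequent by this measure in all 4 libraries, but in HH HFD it fell to 17.4, below that with Sst, without the 16 like-profiled cells. The opposite arrangement, a cell led by Gcg, Sst or Ppy with insulin at 5% or more, was found in 45, 34, 0 and 12 cells, so the mirror cells did not follow the order of the libraries seen for the insulin-led cells.

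The level of the highest second hormone was spread over a wide range. In insulin-only cells the highest second hormone had a median of 0.0263% to 0.0418% of UMIs. Between 1% and 2% there were 8, 11, 3 and 7 insulin-led cells and between 2% and 3% there were 4, 11, 2 and 17, so cells were fewer just under the threshold than just over it in HH HFD alone. There were 14, 31, 2 and 58 cells between 2% and 5%, 20, 20, 3 and 33 between 5% and 10%, and 13, 20, 3 and 35 at 10% or above. The 58 of HH HFD include 16 like-profiled cells described further on, with Ppy at 2.37% to 4.74%. How many of these lie among the 17 between 2% and 3% is not given. The lowest cells that met the rule were at 2.24%, 2.08%, 2.90% and 2.01%, and the highest that missed it at 1.88%, 1.94%, 1.31% and 1.83%. Background from free RNA, read from cells of the endothelial gate, had medians of 0.0540% to 0.0691% for Gcg, up to 0.0102% for Sst and 0.0164% to 0.0330% for Ppy, all far under the 2% threshold. The same cells held insulin at medians of 0.946% to 1.67%.

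The hormone genes of the rule lie apart in the mouse genome (GRCm38), with Ins1 at chr19:52264297-52265476, Ins2 at chr7:142678656-142743381, Gcg at chr2:62474530-62483650, Sst at chr16:23889573-23890958 and Ppy at chr11:102099930-102101319. Pyy, which encodes peptide YY, lies beside Ppy at chr11:102106676-102107832 and was counted among the other genes, since the rule did not use it.

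Insulin took a median of 35.3%, 39.8%, 19.99% and 39.9% of UMIs in cells with a second hormone in the 4 libraries, against 54.4%, 56.0%, 55.5% and 55.6% in insulin-only cells. In Ins+Gcg cells the medians were 37.1%, 41.8%, 11.4% and 39.3% for insulin and 9.38%, 6.69%, 8.19% and 9.24% for Gcg. In Ins+Sst cells Sst was at 4.97%, 3.80%, 6.21% and 3.70%, and in Ins+Ppy cells Ppy was at 5.59%, 6.39%, 6.74% and 4.74%, the last being 9.72% without the like-profiled cells.

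In absolute UMIs, Gcg in Ins+Gcg cells had medians of 2591, 2110, 728 and 2900, compared with 3771, 3286, 5039 and 3353 in Gcg-only cells. Sst in Ins+Sst cells had medians of 1344, 1307, 1904 and 967, compared with 1953, 1840, 2300 and 1583 in Sst-only cells. Medians of both hormones were thus below those of the single-hormone cells in all 4 libraries, the WT HFD values resting on 1 cell each. Ppy in Ins+Ppy cells was much further below, at 1046, 1529, 1039 and 802 UMIs against 7493, 6610, 9492 and 5653 in Ppy-only cells. The HH HFD median of 802 includes the 16 like-profiled cells, with Ppy at 2.37% to 4.74% of UMIs, and the median without them is not given.

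**Figure D2:**
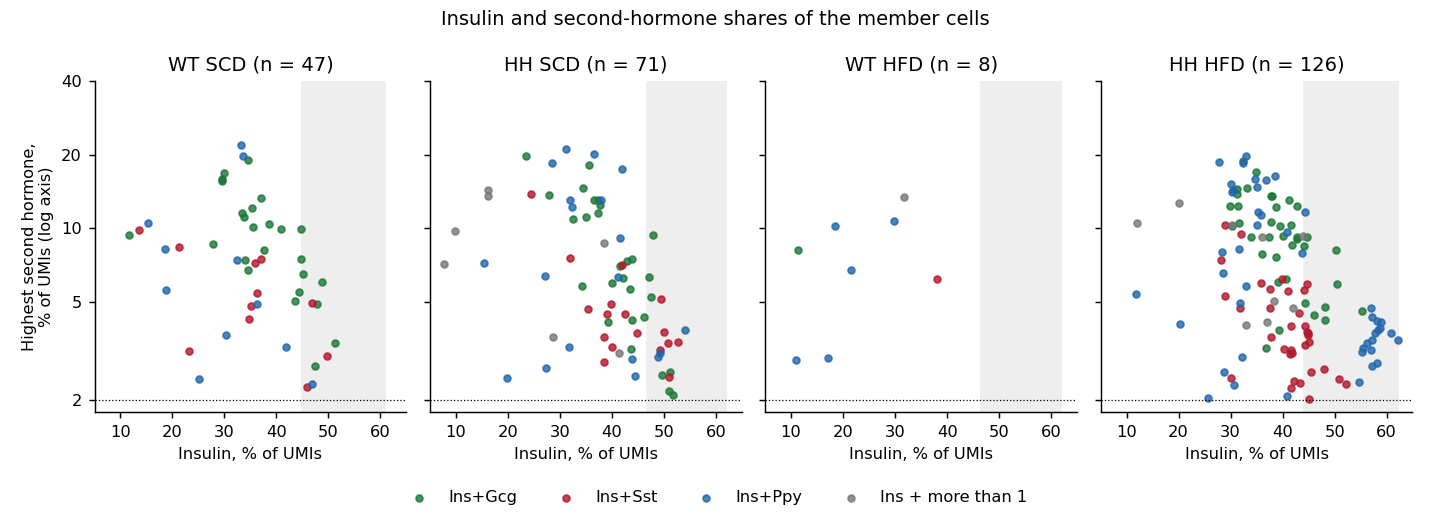
Insulin share (x axis, percent of UMIs) against the highest second hormone (y axis, percent of UMIs, log scale) for each cell with a second hormone, by library. The grey band spans the 5th to 95th percentile of insulin-only cells and the dotted line is the 2% threshold.

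Outside WT HFD, cells with a second hormone were close to insulin-only cells in depth and had higher medians of genes. Without predicted doublets their medians of genes were near those of insulin-only cells. Their median UMIs were 26284, 26552, 15030 and 24821, against 26394, 26187, 29859 and 24251 in insulin-only cells. Their median numbers of genes were 4413, 4214, 3787 and 4016, or 1.13, 1.13, 0.927 and 1.17 times those of insulin-only cells. Without predicted doublets these ratios were 1.01, 0.954, 0.928 and 0.998, and with them those of Ins+Ppy and Ins+several cells in HH SCD were 0.984 and 0.743. The HH HFD ratio of 0.998 includes 16 like-profiled cells described further on, with a median of 2663 genes against 3428 in insulin-only cells. With predicted doublets kept, leaving out those 16 cells took the HH HFD ratio from 1.17 to 1.20. WT HFD was the exception, with 8 cells that were shallower and held fewer genes, although without upper limits on UMIs and genes its ratio was 1.23. Without the upper limits on UMIs and genes, 28.8%, 18.4%, 60% and 13.7% of the cells with a second hormone lay over those limits, against 4.97%, 3.61%, 13.6% and 3.78% of insulin-only cells. On the same unlimited cells, 8.21%, 10.7%, 4.13% and 11.9% of insulin-led cells above the upper quartile of genes had a second hormone, against 0.295% to 2.67% in the groups between the lower quartiles.

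Doublet scores were computed per library with Scrublet, which compares each cell with simulated sums of 2 cells, and the expected number of top-scoring cells was taken as predicted doublets. Such a score reads the same hormone mixture that the rule reads, so it is not independent of it. Predicted doublets made up 68.1%, 63.4%, 50% and 64.3% of cells with a second hormone, and 1.30% to 1.79% of insulin-only cells. The kinds differed: 80%, 71.4%, 100% and 89.5% of Ins+Gcg cells and 90.9%, 88.2%, 100% and 91.2% of Ins+Sst cells were predicted doublets, while it was 18.2%, 42.1%, 20% and 22.2% of Ins+Ppy cells, or 34.5% in HH HFD without the like-profiled cells. Whether the cells are single cells or pairs cannot be told apart for any one cell from these counts.

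**Figure D3:**
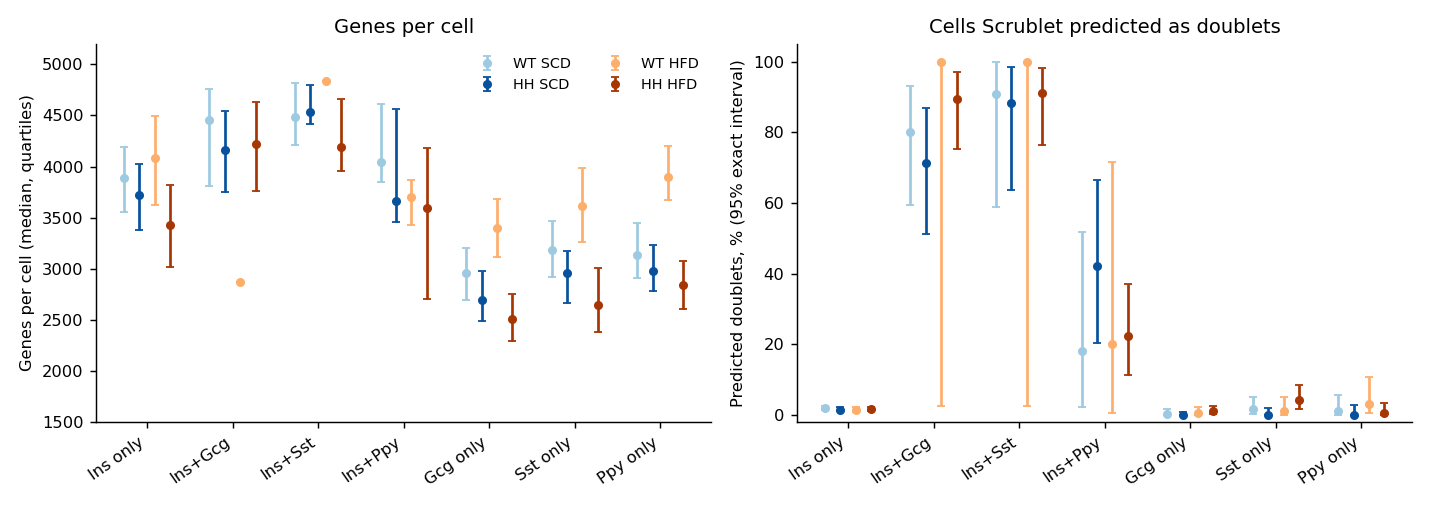
Genes per cell (median with quartiles) and percent of cells among predicted doublets (with 95% exact intervals) for insulin-only cells, the 3 main kinds of cell with a second hormone and the single-hormone cells of each library. Ins+Ppy cells sit at 18.2% to 42.1% predicted doublets, under the other kinds with a second hormone.

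Pairs of hormones without insulin were common for some combinations. Sst-led cells had Ppy at 2% or more in 142 of 318, 148 of 329, 52 of 159 and 119 of 287 cells, or 44.7%, 45.0%, 32.7% and 41.5%. Gcg-led cells had Ppy at this level in 6.92%, 8.37%, 12.7% and 17.1%, and Sst in 0% to 1.43%. Ratios of Pyy to the second hormone could be compared between insulin-led cells and the second hormone's own cells. Pyy stood at 25.7, 26.5, 27.1 and 31.0 UMIs per 100 Sst UMIs in insulin-led cells with Sst as the highest second hormone, and at 23.0, 23.2, 22.3 and 23.6 in Sst-led cells. With Gcg, Pyy stood at 3.94, 6.15, 43.5 and 9.49 per 100 Gcg UMIs, against 4.24, 6.60, 4.89 and 8.05 in Gcg-led cells, the WT HFD value resting on 2 cells. With Ppy, Pyy stood at 23.9, 28.5, 79.9 and 31.2 per 100 Ppy UMIs, against 32.3, 31.9, 31.3 and 25.6 in Ppy-led cells, the furthest apart in WT HFD.

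Transcription factors gave a view of lineage that the rule did not use. After thinning to 5000 UMIs, Irx1 or Irx2, homeobox factors of α cells, was seen in 2 of 25, 5 of 28, 0 of 1 and 12 of 38 Ins+Gcg cells, against 0.388% to 0.518% of insulin-only cells and 49.6% to 66.5% of Gcg-only cells. The β-cell factors Mafa, Nkx6-1 and Pdx1, at least 1 of them, were seen in 84%, 89.3%, 100% and 63.2% of the same Ins+Gcg cells. Factors of both lineages were seen in 1 of 25, 5 of 28, 0 of 1 and 9 of 38. Without thinning, this held for 15 of 25, 15 of 28, 1 of 1 and 29 of 38 cells, compared with 2.15% to 2.66% of insulin-only cells and 19.8% to 32.7% of Gcg-only cells. In cells of the endothelial gate, thinned alike, Irx1 or Irx2 was seen in 1 of 91, 0 of 64, 0 of 130 and 0 of 133.

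Hhex, the δ-cell factor at chr19:37434810-37440731, was seen in 9 of 11, 4 of 17, 0 of 1 and 11 of 34 Ins+Sst cells thinned to 5000 UMIs. Hhex together with Mafa or Nkx6-1 was seen in 6 of 11, 3 of 17, 0 of 1 and 7 of 34 Ins+Sst cells, Pdx1 being left out because δ cells express it as well. Hhex was seen in 65.1% to 73.8% of Sst-only cells, 0.150% to 0.414% of insulin-only cells and 0 Ins+Gcg cells. Endothelial cells express Hhex too, and cells of the endothelial gate held it in 19.5% to 23.4%. Ins+Ppy cells held Irx1 or Irx2 in 0 of 11, 2 of 19, 0 of 5 and 1 of 45, and Ppy-only cells in 3.12% to 7.78%. They held β-cell factors in 6 of 11, 13 of 19, 4 of 5 and 39 of 45, and Ppy-only cells in 32.0% to 43.1%.

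**Figure D4:**
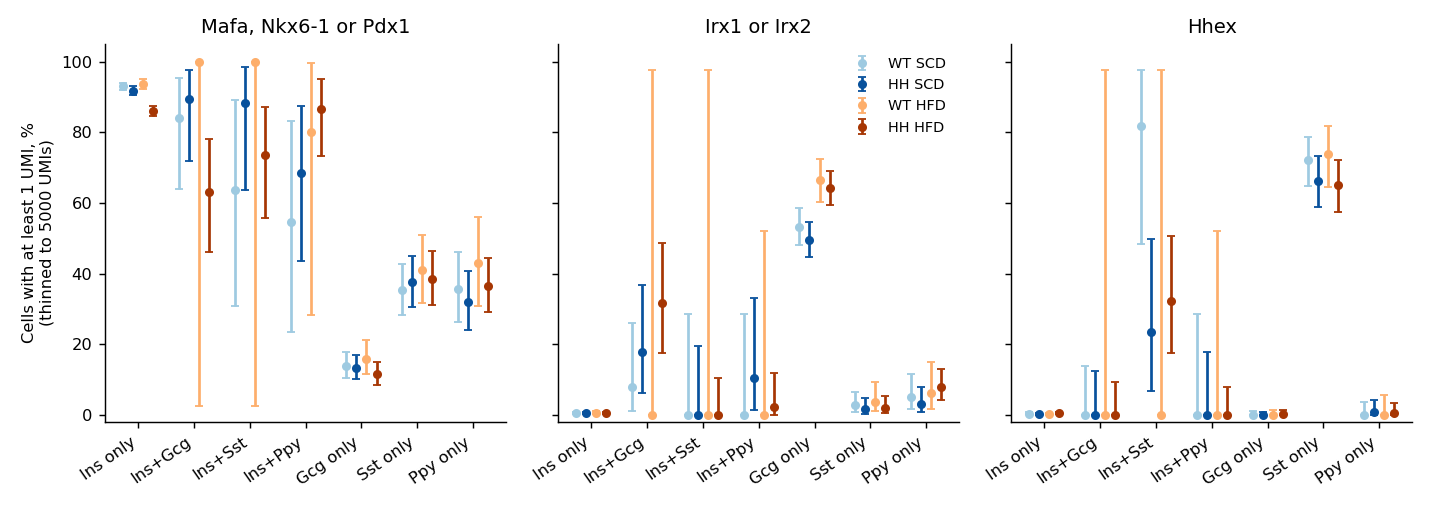
Percent of cells with at least 1 UMI of the β-cell factors (Mafa, Nkx6-1, Pdx1), the α-cell factors Irx1 and Irx2 and the δ-cell factor Hhex after thinning to 5000 UMIs, by kind of cell and library. Ins+Gcg cells hold Irx1 or Irx2, and Ins+Sst cells hold Hhex, in all libraries except WT HFD, which has 1 cell of each kind.

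To look beyond these factors, counts were summed over the cells of each kind in each library and set against insulin-only cells, in counts per 1000000 UMIs outside the 5 hormones (CPM). A gene was read when its mean was at least 50 CPM over both groups and the libraries, and was called when it differed at least 2-fold in the same direction in all libraries. For Ins+Gcg cells 21 of 3280 genes were called higher (0.64% of genes) and 0 lower (0%). Without WT HFD, which rested on 1 cell, 18 of 3174 were higher (0.567%) and 0 lower (0%). Of the genes called higher, 16 of 21 in Ins+Gcg, 23 of 29 in Ins+Sst and 8 of 13 in Ins+Ppy cells had means under 50 CPM in insulin-only cells. Such genes, among them Higd1a, Rbp4, Ly6h, Hhex, Cd24a, Tspan8, Folr1 and Calb1, passed the minimum through the cells in which they were high, so their calls are partly fixed by it.

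The genes named below as higher in Ins+Gcg cells were also higher in Gcg-only cells than in insulin-only cells. Higd1a, which encodes a mitochondrial inner membrane protein, was at 146, 91.1, 140 and 102 CPM in Ins+Gcg cells, with 51, 35, 1 and 59 UMIs, against 0.518 to 1.96 CPM in insulin-only cells and 277 to 346 CPM in Gcg-only cells. Its log2 ratios over insulin-only cells were 6.68 (Poisson interval 6.03 to 7.34), 5.54 (4.86 to 6.21), 8.08 (2.60 to 10.98) and 6.27 (5.67 to 6.87). Its WT HFD value rests on 1 UMI in 1 cell. Pyy (log2 ratios 5.01, 5.17, 5.87 and 5.25), Gpx3, an extracellular glutathione peroxidase (3.99, 3.28, 4.91 and 2.87), and Rbp4, which carries retinol (4.12, 3.12, 2.51 and 4.89), were higher in the same way. Ttr, the transthyretin gene that α cells express at high level, was at 18356, 12134, 9097 and 17278 CPM, against 2822, 3031, 2993 and 6050 in insulin-only cells. Irx1, which fell under the CPM minimum for the comparison, had 20, 19, 1 and 37 UMIs in Ins+Gcg cells.

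Of the 10 β-cell genes measured, 0 were called in either direction in Ins+Gcg cells, with medians of −0.72, −0.52, −0.51 and −0.83 on the log2 scale. Scaled to all UMIs, hormones included, the medians were −0.54, −0.33, 0.34 and −0.67, so the sign of the lone WT HFD cell turned, while the median of all genes was 0.14, 0.12, 1.5 and 0.15. Slc2a2, the glucose transporter of mouse β cells, had log2 ratios of −0.73, −0.94, −0.69 and −0.89, and Mafa, at chr15:75745490-75748228, had −1.24, −0.59, −1.31 and −0.84. Mafa still stood at 366, 539, 280 and 241 CPM, against 6.21 to 14 CPM in Gcg-only cells. Of the 7 α-cell genes read, 3 passed the minimum, and 1 of them, Ttr, was called higher, against 0.64% of all genes. Iapp, which encodes the islet amyloid peptide released with insulin, was at 50675, 61229, 10077 and 97940 CPM against 81874 to 133171 CPM in insulin-only cells. The lone WT HFD cell, whose median over all genes was 1.5 on the log2 scale, had the lowest Iapp by far.

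For Ins+Sst cells 29 of 3237 genes were called higher (0.896%) and 1 lower (0.0309%), and without WT HFD 34 of 3229 higher (1.05%) and 2 lower (0.0619%). The leading genes were high in Sst-only cells too. Ly6h, a GPI-anchored neuronal protein, was at 354, 260, 409 and 305 CPM against 0.454 to 0.859 CPM in insulin-only cells and 600 to 762 CPM in Sst-only cells. Hhex was at 226, 146, 175 and 121 CPM, from 35, 41, 3 and 58 UMIs, against 0.583 to 1.14 CPM in insulin-only cells and 324 to 398 CPM in Sst-only cells. Rbp4 was at 2565, 2910, 3390 and 3572 CPM, against 5586 to 7445 CPM in Sst-only cells. The WT HFD values rest on 1 cell. Cd24a, which encodes a surface glycoprotein, had log2 ratios of 5.36, 4.84, 6.39 and 4.44.

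The gene called lower in Ins+Sst cells was Dapl1, with log2 ratios of −1.65, −1.04, −2.10 and −1.31. Of the β-cell list 0 of 10 were called, with medians of −1.11, −0.77, −0.12 and −0.49, or −0.80, −0.55, 0.20 and −0.23 scaled to all UMIs, where the median of all genes was 0.29, 0.23, 0.39 and 0.31. Of the 7 δ-cell genes 3 passed the minimum and 2 of these were called higher, both of which, Hhex and Rbp4, passed through the Ins+Sst cells. Chgb, a granin of secretory granules that Sst-only cells hold at 5403 to 5842 CPM, was at 3099, 2678, 3449 and 3539 CPM against 1329 to 2009 CPM in insulin-only cells. Neurog3, the factor that starts the endocrine lineage, had 2, 6, 0 and 13 UMIs in Ins+Sst cells and was also present in Sst-only cells, at 33.4 to 80.4 CPM.

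For Ins+Ppy cells 13 of 3200 genes were called higher (0.406%) and 3 lower (0.0938%), and without WT HFD 15 of 3135 higher (0.478%) and 3 lower (0.0957%). Pyy led, at 40160, 57816, 69118 and 48754 CPM against 240, 275, 277 and 401 CPM in insulin-only cells and 161677 to 202683 CPM in Ppy-only cells. Tspan8, a tetraspanin membrane protein, was at 423, 495, 511 and 411 CPM against 23.2 to 26.4 CPM. Folr1, a folate receptor, was at 299, 257, 564 and 251 CPM against 35.9 to 57.6 CPM. Calb1, which encodes the calcium buffer calbindin, had log2 ratios of 3.63, 2.89, 4.28 and 2.66. The 3 genes called lower were Car10, Fam135a and Mns1, each with few UMIs, and without HH HFD 19 genes were lower. Prlr, the prolactin receptor, was at −1.32, −1.27, −2.44 and −0.96, just short of 2-fold in HH HFD. Of the 10 β-cell genes 0 were called, with medians of −1.57, −0.86, −2.44 and −0.67.

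Other gene lists had few or no called genes. Of 12 pan-endocrine genes 0 were called in either direction for any kind, and with 0.406% to 0.896% of all genes called higher and 0% to 0.0938% lower, nothing can be read from this count. The cell-cycle list had 0 genes over the minimum, so it could not be read. For Mki67, the proliferation marker, Ins+Gcg cells had 0, 2, 0 and 15 UMIs. Of the 8 genes for immature or dedifferentiated cells, 1 passed the minimum and was not called, and Aldh1a3, a marker of failing β cells, had 4, 5, 0 and 9 UMIs in Ins+Gcg cells, 3, 0, 0 and 7 in Ins+Sst cells and 5, 0, 0 and 5 in Ins+Ppy cells. Read without WT HFD, 2 of the 8 passed in Ins+Ppy cells and 0 were called. Their log2 medians were 2.15, 1.17 and 0.01 in WT SCD, HH SCD and HH HFD. The endothelial, stromal and acinar lists had 0 genes over the minimum, and the immune list had 1, which was not called. The ductal list had 2 for Ins+Ppy cells, of which Spp1, the osteopontin gene, was called higher and had passed the minimum through the Ins+Ppy cells. Of the 4 PP-cell genes 2 passed the minimum, and both were called higher in Ins+Gcg and Ins+Sst cells (0.64% and 0.896% of all genes) and 1 of them in Ins+Ppy cells (0.406%). Of these, Etv1, at 28.4 to 68.8 CPM in insulin-only cells, passed through the cells with a second hormone. At least 4 of 8 endothelial markers were found in 1, 0, 0 and 4 cells with a second hormone, and at least 4 of 8 immune markers in 0, 1, 0 and 16. The 16 in HH HFD are 12.7% of its cells with a second hormone (interval 7.44 to 19.8), against 0.655% of its insulin-only cells. Of these 16, 15 belong to the like-profiled cells described below, and of the 110 cells outside that group 1 (0.909%) reached it. No cell with a second hormone held at least 3 of 6 stromal, 3 of 6 acinar or 3 of 4 ductal markers.

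Positions between insulin-only cells and the matching single-hormone cells were read over the genes that separate those at least 4-fold and reach 100 CPM. On a scale where 0 is insulin-only and 1 is the single-hormone population, genes high in the single-hormone cells stood at medians of 0.377, 0.282, 0.043 and 0.318 in Ins+Gcg cells, 0.433, 0.378, 0.350 and 0.365 in Ins+Sst cells and 0.235, 0.354, 0.292 and 0.266 in Ins+Ppy cells. Genes high in insulin-only cells stood at 0.399, 0.303, 0.794 and 0.385 in Ins+Gcg, 0.540, 0.358, 0.572 and 0.381 in Ins+Sst, and 0.566, 0.441, 0.704 and 0.343 in Ins+Ppy cells. Outside WT HFD, 87.5% to 100% of these genes lay between the reference populations. In WT HFD it was 32.8% and 35.9% of genes in the lone Ins+Gcg cell, 58.8% and 51.4% in the lone Ins+Sst cell and 79.5% and 77% in the 5 Ins+Ppy cells. No gene stood at least 1.5-fold above both of its reference populations in all 4 libraries, out of 3016 for Ins+Gcg, 3020 for Ins+Sst and 2817 for Ins+Ppy. No gene stood as far below both in all 4 libraries either. Since WT HFD rests on 1 Ins+Gcg and 1 Ins+Sst cell, the count was also made without it, and 1 gene of 2901 then stood below both for Ins+Gcg.

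The Ins+Ppy cells differed among themselves. Ins1 and Ins2 are separate genes, and Ins1 took a median of 26.8% to 29.9% of insulin UMIs in insulin-only cells. In 7, 5, 4 and 10 Ins+Ppy cells it took under 20%, with medians of 12.8%, 14.4%, 3.07% and 3.65%. This set was chosen after the values were seen, and its values are descriptions. It made up 0.332% (0.133 to 0.682), 0.241% (0.078 to 0.562), 0.345% (0.094 to 0.880) and 0.331% (0.159 to 0.607) of insulin-led cells. The 4 intervals overlap, and WT HFD, which had few cells of the other kinds, had the highest share.

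These 26 low-Ins1 Ins+Ppy cells had medians of 32.4%, 27.2%, 17.8% and 29.6% for insulin and 5.59%, 3.29%, 4.85% and 4.51% for Ppy. Their UMI medians were 21551, 14612, 15030 and 15832 and their gene medians 4040, 3517, 3787 and 3468. Predicted doublets numbered 1, 0, 0 and 0. The predicted doublet in WT SCD had Ppy at 19.7% of UMIs, Ins1 at 19.8% of insulin UMIs and all 19 of the Mafa UMIs of its set.

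Genes of mature β cells were low or absent in the low-Ins1 Ins+Ppy cells. Mafa had 19, 3, 0 and 2 UMIs in 1, 2, 0 and 2 cells, while 1961 of 2064, 1910 of 2001, 1099 of 1153 and 2523 of 2899 insulin-only cells held it. Thinned to 5000 UMIs, Mafa was seen in 1 of 7, 0 of 5, 0 of 4 and 0 of 10, against 1576 of 2063, 1504 of 2001, 789 of 1153 and 1539 of 2898 insulin-only cells. Slc2a2 had 11, 1, 3 and 0 UMIs. Ucn3, a peptide of mature β cells, had 12, 2, 3 and 2 UMIs and log2 ratios of −2.34 (−3.30 to −1.54), −4.15 (−7.20 to −2.30), −3.37 (−5.64 to −1.82) and −4.57 (−7.62 to −2.72). G6pc2, the islet glucose-6-phosphatase, had 26, 1, 4 and 7 UMIs and ratios of −2.15 (−2.77 to −1.60), −5.94 (−11.25 to −3.47), −4.18 (−6.05 to −2.82) and −4.10 (−5.42 to −3.06). The β-cell identity factors were closer to insulin-only cells, with Nkx6-1 at −1.56, −1.18, −0.98 and −0.05 and Pdx1 at −0.76, −0.62, −0.49 and −0.66. Iapp was at 98627, 75649, 51871 and 94709 CPM, against 1763 to 4477 CPM in Ppy-only cells. In all, 29 of 3172 genes were at least 2-fold lower in all 4 libraries (0.914%) and 23 higher (0.725%). How many of the 23 passed the CPM minimum through the low-Ins1 cells is not given, so their calls may be partly fixed by it. Of the 10 β-cell genes 5 were lower in all 4, with list medians of −1.95, −1.60, −1.83 and −1.33. Of the 8 genes for immature or dedifferentiated cells 2 passed the minimum and 0 were called, with medians of 2.06, 1.76, 1.41 and 0.81.

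Several genes stood above both insulin-only and Ppy-only cells in the low-Ins1 set. Chga, the chromogranin A gene of secretory granules, was at 28275, 32033, 38531 and 46607 CPM, against 13568 to 16887 CPM in insulin-only and 3285 to 4375 CPM in Ppy-only cells. Chgb was at 3137, 2595, 3064 and 5005 CPM, against 1329 to 2009 and 1522 to 1918 CPM. Cpb2, a plasma carboxypeptidase, had 5, 8, 5 and 23 UMIs, which is 47.8, 137, 102 and 225 CPM. It was at 4.67 to 6.29 CPM in insulin-only and 0 to 3.46 CPM in Ppy-only cells. Cpb2 could thus pass the CPM minimum only through the low-Ins1 cells, so its place above insulin-only cells is partly fixed by that minimum. None of these 3 genes lay between the insulin-only and the Ppy-only level in any library. Pyy, at 40241, 21567, 56468 and 41054 CPM, and Tspan8, at 363, 464, 449 and 547 CPM, did.

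**Figure D5:**
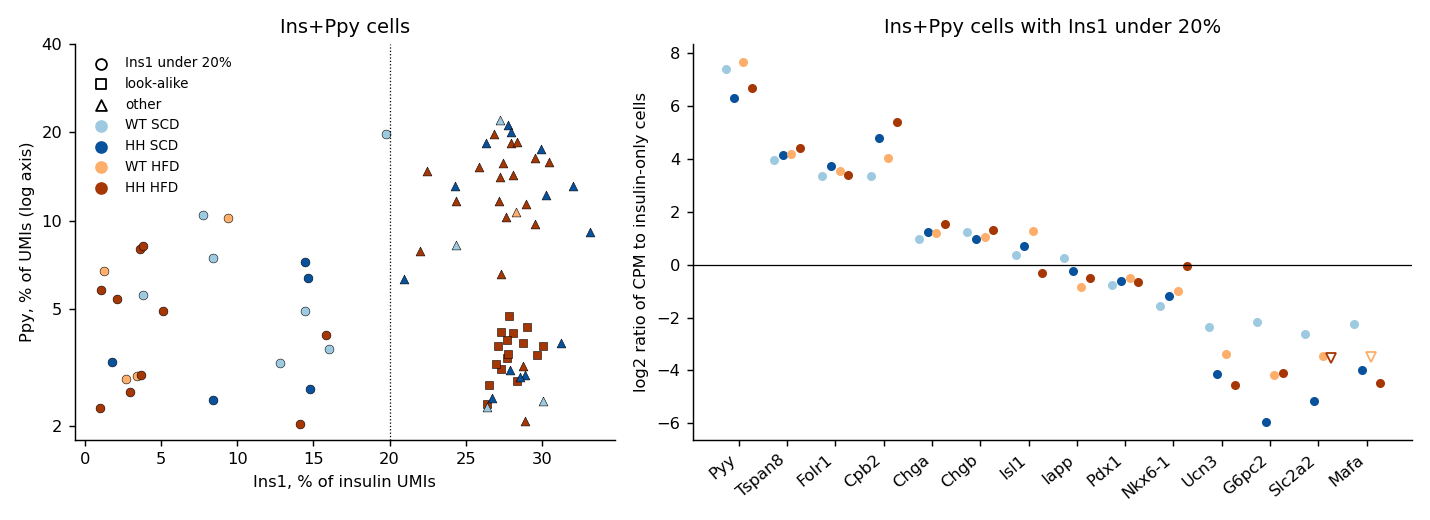
Left, Ins1 as a percent of insulin UMIs against Ppy as a percent of UMIs (log axis) for each Ins+Ppy cell, with circles for low-Ins1 cells, squares (look-alike) for 16 like-profiled HH HFD cells, triangles for the others and a dotted line at 20%. Right, log2 CPM ratio of the low-Ins1 cells to insulin-only cells for named genes in each library, where Mafa, Slc2a2, Ucn3 and G6pc2 are below 0 and Chga and Chgb above it. Hollow triangles mark 0 UMIs and are set at 3 counts as an upper limit.

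Low Ins1 was not limited to cells with Ppy. Among insulin-only cells 49, 39, 53 and 175 had Ins1 under 20% of insulin UMIs, or 2.37%, 1.95%, 4.60% and 6.04%. Pyy was at 4883, 2780, 3005 and 2452 CPM in them, against 129, 232, 144 and 260 CPM in the other insulin-only cells, although Pyy was uneven among them, with medians of 1 to 2 UMIs per cell and highest values of 879, 482, 538 and 862. Thinned to 5000 UMIs, Mafa was seen in 44.9%, 25.6%, 34.0% and 24.6% of them and in 77.2%, 76.1%, 70.1% and 54.9% of the others. Chga was at 24290, 25758, 24901 and 20599 CPM, against 14184, 13361, 16495 and 15835 CPM. The low-Ins1 insulin-only cells thus lay on the same side of the other insulin-only cells as the low-Ins1 Ins+Ppy cells for each of these genes. For Pyy this holds for the summed counts only, since insulin-only cells as a whole also had medians of 1 to 2 UMIs.

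The Ins+Ppy cells with Ins1 at 20% or more, leaving out the like-profiled cells described next, numbered 4, 14, 1 and 19. Their Ppy medians were 5.33%, 10.7%, 10.7% and 14.1%, above those of the low-Ins1 cells except in WT SCD, and 1, 8, 1 and 10 were predicted doublets. Mafa was found in 2, 14, 0 and 19 of them. In HH SCD and HH HFD, Chga was at 11137 and 10943 CPM, below the insulin-only levels of 13568 and 16142 CPM, while the 4 cells of WT SCD were above, at 30892 CPM.

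A group of 16 Ins+Ppy cells in HH HFD had like profiles. They were chosen after the values were seen, as cells with at least 3 partners among the cells with a second hormone at a pairwise chi-square under 1.5 per gene. Insulin was at 54.6% to 62.2% of UMIs, Ppy at 2.37% to 4.74%, Gcg at 0.768% to 1.45% and Sst at 0.382% to 1.06%, so all 4 hormones were present in each. They had 16266 to 31173 UMIs and 2319 to 3918 genes, and 0 were predicted doublets. Mitochondrial genes took 0.0151% to 0.0544% of their UMIs, against a median of 4.11% in the other cells with a second hormone and 3.98% in insulin-only cells of the same library, of which 23 of 2899 were under 0.5%. All 16 held Cd74, the invariant chain of MHC class II, with 31 to 79 UMIs each, and H2-Aa, an MHC class II chain, with 7 to 28. Cd209a, a lectin of dendritic cells, had a log2 ratio of 10.27 over insulin-only cells (8.43 to 12.7), the highest of a ranking by this ratio. That value rests on 14 UMIs in the 16 cells and on 0.0921 CPM in insulin-only cells. Over the 308 genes of the chi-square measure, which chose these cells, their pairs had a median of 1.28 and 94 of 120 pairs were under 1.5. Insulin-only pairs had a median of 3.96 with 0.173% under 1.5, and the lowest value of a cell outside the group was 1.10, so single pairs as close occurred among other cells. The other libraries had 0 such cells. Without them the HH HFD share of cells with a second hormone was 3.66%, and the HFD difference was 2.97 points (2.04 to 3.80). The part of the immune genes and of the near absence of mitochondrial UMIs in this result was not tested.

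Cells with several second hormones had fewer UMIs than the other kinds in HH SCD and HH HFD. The 7 in HH SCD had medians of 16.3% insulin, 4.48% Sst and 5.04% Ppy, 10672 UMIs and 2764 genes, and 2 of them were predicted doublets. The 9 in HH HFD had medians of 36.0% insulin, 4.75% Gcg, 2.03% Sst and 2.80% Ppy, 19885 UMIs and 3555 genes, and 6 were predicted doublets. The 1 in WT HFD had 13.4% Gcg and 5.18% Ppy.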

How the data were processed

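Single-cell RNA libraries (10x Genomics 3′ v3.1, polyA RNA) of 4 groups were read, 1 library of pooled islets for each group. The deposited matrices hold UMI counts, whole numbers for each gene in each barcode, that the authors made with Cell Ranger 6.0 against mm10, per the labels and the submitters' processing notes. The study's removal of ambient RNA (SoupX) and of doublets (DoubletFinder) came after these counts and is not part of them, and no ambient correction was applied here. Depth is the total UMIs of each library, given in the report.

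Cells were kept at under 10% mitochondrial UMIs, 3000 to 50000 UMIs and 2000 to 5000 genes. No cell annotation was used, so cells are named by their hormones. The members, gene lists and thresholds were chosen with earlier results of these data known. Summed counts per library and kind were scaled per 1000000 UMIs outside the 5 hormones, genes with a mean of at least 50 CPM over both groups and the libraries were read, and a 2-fold difference in all libraries was the call. Where a group had 0 UMIs, 3 counts were used as its limit. Genes were named among the 10 highest and 5 lowest of each kind by their least extreme ratio over the libraries, or from lists for β, α, δ and PP cells, pan-endocrine, immature, cell-cycle and other cell types. Some genes of these lists and rankings are not reported here, and the α-cell list and factors were read without them. Cpb2, Chga and Chgb in the low-Ins1 cells and the genes of the like-profiled cells were singled out after their values were seen. Transcription factors were read after thinning each cell to 5000 UMIs. Shares have exact Clopper-Pearson intervals, differences of shares combine both of these intervals, and ratios have exact conditional Poisson intervals. Scrublet (scanpy 1.11.5) was run per library on the kept cells with an expected rate of 0.8% per 1000 kept cells, and that number of top-scoring cells was taken as predicted doublets, since its own cutoff gave 40, 46, 9 and 7 calls. The ratios and calls, the Poisson and Clopper-Pearson intervals, the thinning and the pairwise chi-square were tested on simulated data, and the other computations were not. Positions are from GENCODE M21 on GRCm38. Python 3.11.15, numpy 2.4.6, scipy 1.17.1, pandas 2.3.3, anndata 0.12.19, scikit-learn 1.9.0 and matplotlib 3.10.9 were used. Members were compared by kind, library by library, with no test, since each group is 1 library. Alternatives were other thresholds for the hormones, filters, depth of thinning and CPM, removal of predicted doublets, and leaving out each library.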

Additional observations from a re-analysis of the deposited data

How the results depend on the processing

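With 1 library per group no result has a replicate check, and intervals cover counting error only. No paired analysis was possible because each group is a single library and no test was made. The share of insulin-led cells with a second hormone was higher in HH than in WT under every setting tried on both diets, but the HFD difference of 3.48 points moved to 1.73 and 0.899 with the second hormone at 5% and 10%, 2.46 with looser cell filters and 1.20 without predicted doublets, and 0.656 without these and the 16 like-profiled cells. The SCD difference of 1.20 points ranged from 0.349 to 1.37, and its interval included 0 with the second hormone at 5% and 10%, with no upper limits and without predicted doublets. Ins+Ppy cells, 31.7% of all, were 65.6% without predicted doublets, 58.1% without these and the like-profiled cells and 23.9% without the low-Ins1 cells. The settings on like-profiled and low-Ins1 cells were chosen after seeing the data.

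The ratio of genes per cell to insulin-only cells was 1.21 in WT SCD and 1.23 in WT HFD with no upper limits, and 1.22 in HH HFD with the second hormone at 5%. Without predicted doublets it was 1.01 in WT SCD, 0.954 in HH SCD and 0.998 in HH HFD, the last with the 16 like-profiled cells included. Ins+Gcg cells with factors of both lineages were 16.3% of all as reported, 30% when thinned to 10000 UMIs, 65.2% with no thinning and 1.09% when 2 UMIs were required. For Hhex with Mafa or Nkx6-1 in Ins+Sst cells the share was 25.4% as reported, 74.6% with no thinning, 4.76% when 2 UMIs were required and 41.7% among cells no deeper than the median insulin-only cell.

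Genes higher in Ins+Gcg cells, 21 as reported, numbered 33 and 10 at minimums of 20 and 100 CPM, and 32 and 7 at 1.5-fold and 4-fold. For Ins+Sst, 29 became 66 and 13, and 53 and 12. For Ins+Ppy, 13 became 21 at 20 CPM, and 36 and 8 at 1.5-fold and 4-fold. Genes lower in Ins+Ppy cells, 3 as reported, numbered 19 without HH HFD and 8 without the 16 like-profiled cells. Among the remaining values, those for single kinds, libraries and genes included, 56 moved further than their counting error (counts, 1.5 times). Scaled to all UMIs, the medians of the β-cell list in WT HFD turned to 0.34 for Ins+Gcg and 0.20 for Ins+Sst cells, and pan-endocrine medians turned from −0.03 to 0.16 (Ins+Gcg, HH SCD), from −0.10, −0.04 and −0.12 to 0.22, 0.17 and 0.12 (Ins+Sst, WT SCD, HH SCD and HH HFD) and from −0.03 to 0.36 (Ins+Ppy, WT SCD). For these pan-endocrine cases the scaled median of all genes was 0.12, then 0.29, 0.23 and 0.31, then 0.35. The turned values were thus near or under the general shift. With this scaling 11 pan-endocrine genes in place of 12 were read for Ins+Sst and Ins+Ppy cells.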
